A study of Rattus norvegicus with 5 samples.

Results

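The comparison is between cultured rat lens treated with methyl methanesulfonate (MMS) for 2 days and untreated Control lens, and how many lenses went onto an array is not given in the sources used here. Lenses came from male Sprague Dawley rats aged 6 weeks and were cultured outside the body in serum-free M199 medium with albumin, which was renewed daily. The MMS Day 2 lens had 1 mM MMS in the medium from the start of culture, and the Control lens was kept in normal medium for 4 days. The other lenses of the series had 1 mM MMS to Day 4, or Bleomycin, a drug that breaks DNA strands, at 800 μg/mL to Day 2 or to Day 6. Each of the 5 conditions was read on 1 array, so no value could be set against the spread between lenses, and no test was run. The MMS Day 2 lens was younger in culture than the Control lens, so the effect of the drug and that of the days in culture cannot be told apart in this comparison.

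The members were the probe sets with a gene name whose log2 signal reached 5 in the MMS Day 2 or the Control array. They numbered 4124 of the 19086 named probe sets and of the 36685 probe sets on the array, and the other 14962 named probe sets stayed under the limit in both arrays. Of the members, 3253 reached the limit in both arrays, 166 in MMS Day 2 alone and 705 in Control alone. A difference is the MMS Day 2 log2 signal minus the Control log2 signal, and a call is a difference of at least 1 in either direction, which is 2-fold. Defining genes of the lens were bright, since the crystallins and Mip, Lim2 and Bfsp1 had signals between 10.11 and 13.42 in both arrays.

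MMS methylates DNA bases. The damage is read by checkpoint kinases that stabilize the transcription factor p53, which switches on cell cycle inhibitors such as p21 (Cdkn1a) and its own inhibitor Mdm2. Electrophiles such as MMS can also modify the sensor Keap1 and free the transcription factor NRF2, which drives enzymes that reduce quinones and conjugate glutathione. The lens holds a single layer of epithelial cells, which divide slowly, make the capsule and read growth factors, and a mass of fiber cells that are filled with crystallins and lose their nuclei as they mature.

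Far more members lay below Control than above it. At the 2-fold limit 50 of the 4124 members were higher in MMS Day 2 (1.21%) and 402 were lower (9.75%). Among the 3958 members with exactly 1 gene symbol, 48 were higher (1.21%) and 394 lower (9.95%), and these carry the names and lists used here. The median difference over all members was -0.16, with quartiles at -0.56 and 0.05, and 66.9% of members lay within 0.5 of Control. Of the 50 higher members, 29 had a Control signal under 5 and so were kept through MMS Day 2 alone, and 232 of the 402 lower members were kept through Control alone. The lopsided count depended on the scaling of the arrays: centring both arrays on the median of the members moved every difference up by 0.28, which gave 104 higher and 192 lower, so that the lower share of the calls was 64.9% in place of 88.9%. Quantile normalization of the arrays gave 79 higher and 205 lower, a lower share of 72.2%. RMA, the method the authors used, returned exactly equal values in both arrays for 7.71% of members.

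**Figure D1:**
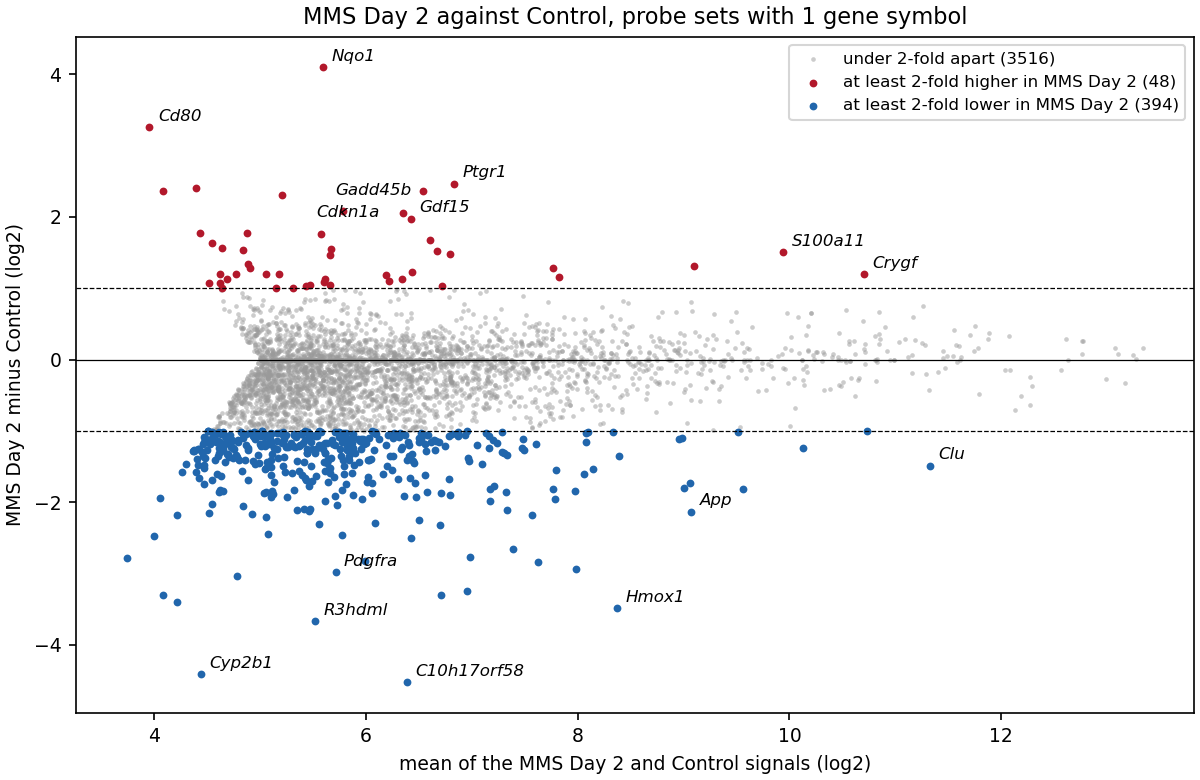
Difference between MMS Day 2 and Control (log2, vertical axis) against the mean signal of both arrays (log2, horizontal axis) for the 3958 members with 1 gene symbol, with dashed lines at 2-fold. The 48 higher members (red) and the 394 lower members (blue) lie mostly at low and middle signals, and Nqo1 and C10h17orf58 lie farthest from 0.

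The share of lower calls was 9.46% of the 1808 members with a mean signal between 5 and 6, 6.07% of the 461 between 7 and 8, and 1.99% of the 151 at 10 or more. Members with a mean under 5 were kept through 1 array alone, so the choice of members fixed a difference there and their share is not read. Of the probe sets past 2-fold nearest to the signal limit, Siah1 (4.00 in MMS Day 2 and 5.004 in Control), Mylip (3.74 and 5.01) and Dph6 (4.01 and 5.01) lay just inside it. Hdac4 (3.80 and 4.998), Tmem87b (3.96 and 4.99) and Susd2 (3.61 and 4.98) were as far apart and lay just outside. Abcb1b, a drug efflux pump of the plasma membrane, also missed the limit with 4.49 in MMS Day 2 and 1.86 in Control.

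The gene farthest above Control was Nqo1, the NAD(P)H quinone reductase. Its signal was 7.64 in MMS Day 2 and 3.55 in Control, a difference of 4.10 or 17.1-fold. Cd80, a costimulatory ligand for T cells, followed at 5.58 in MMS Day 2 and 2.32 in Control. Ptgr1, a reductase of reactive alkenals, had 8.06 in MMS Day 2 and 5.60 in Control, and Bpifb1, a secreted lipid-binding protein, 5.60 in MMS Day 2 and 3.19 in Control. The stress-induced Gadd45b had 7.72 in MMS Day 2 and 5.36 in Control. Of these leading genes only Nqo1, Ptgr1 and Gadd45b had a signal over 7 in MMS Day 2, and the folds of Nqo1, Cd80 and Bpifb1 rest on Control signals well below the limit. The other genes among the 15 farthest above Control had differences from 1.64 to 2.36: Eda2r, Plk2, Rbm3 (a cold-inducible RNA-binding protein), Cdkn1a, Gdf15, Pln (an inhibitor of the calcium pump of the endoplasmic reticulum), Fosl1, Mir328, the ribosomal protein copy Rplp2l3 and Lxn (a carboxypeptidase inhibitor).

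The gene farthest below Control was C10h17orf58, with 4.13 in MMS Day 2 and 8.65 in Control, a difference of -4.52. Cyp2b1, a cytochrome P450 known for its induction by phenobarbital in rat liver, had 2.24 in MMS Day 2 and 6.65 in Control. R3hdml had 3.68 in MMS Day 2 and 7.35 in Control. Hmox1, the heme oxygenase, stood out by its level, with 6.63 in MMS Day 2 and 10.11 in Control, so it was 11.2-fold lower and yet far above the limit in both arrays. Lpl, the lipoprotein lipase, had 2.51 in MMS Day 2 and 5.91 in Control, and Serping1, the inhibitor of complement C1, 2.43 in MMS Day 2 and 5.74 in Control. Chrdl1, a secreted BMP antagonist, had 5.06 in MMS Day 2 and 8.37 in Control. The rest of the 15 farthest below Control had differences from -2.77 to -3.25: Cpm (a membrane carboxypeptidase), Aldh1a1, Pdgfra, Nrep, Slc25a39 (a mitochondrial glutathione carrier), Spon1, Nat8f3 and Efemp1 (fibulin-3). The next below them was Eprs1, the glutamyl-prolyl-tRNA synthetase, with 6.06 in MMS Day 2 and 8.72 in Control.

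**Figure D2:**
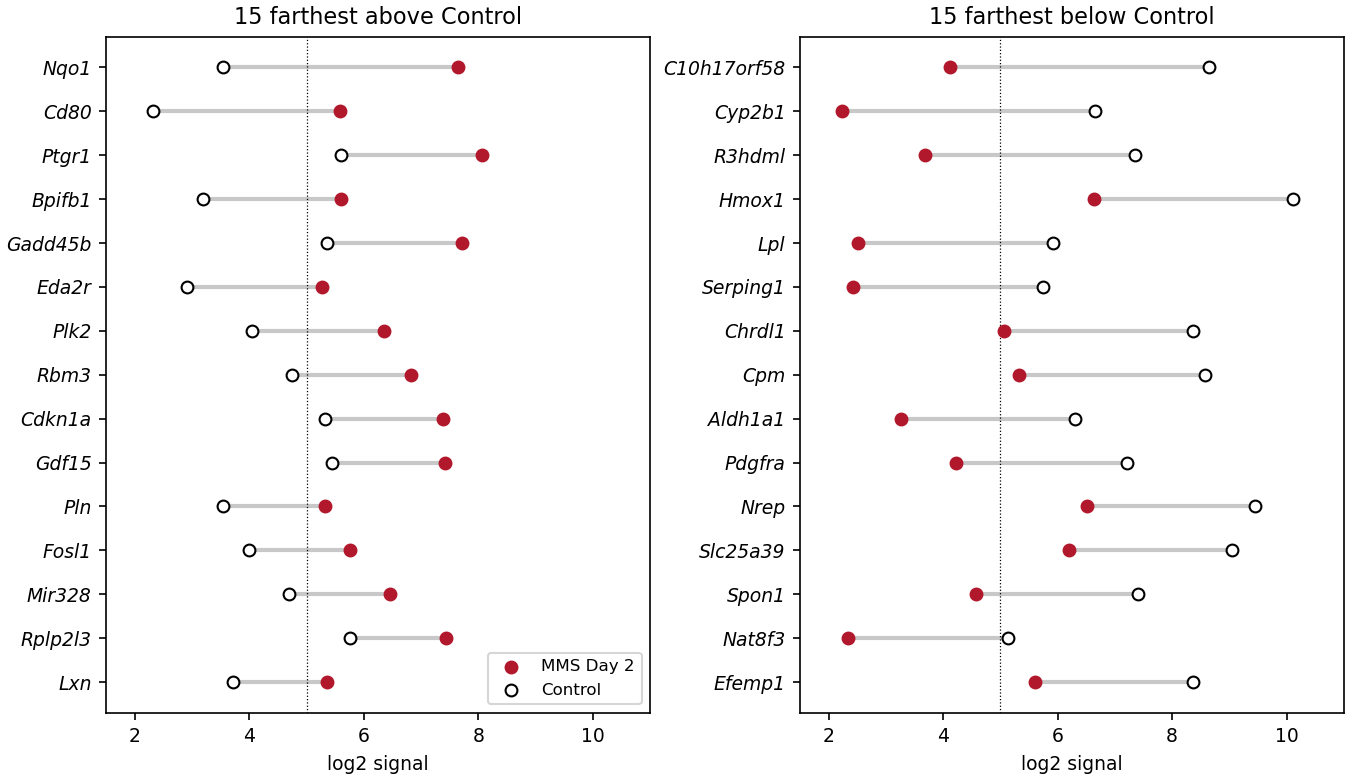
Log2 signals in MMS Day 2 (red) and Control (open) of the 15 genes farthest above Control (left) and the 15 farthest below (right), with the dotted line at the signal limit of 5. Cd80 and Eda2r cross the limit from Control values under 3, while Hmox1, Nrep and Slc25a39 stay above 6 in both arrays.

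Several targets of p53 were among the genes farthest above Control. Of the 14 probe sets kept from the list, 5 were higher and 3 lower (21.4%). Over all members with 1 symbol 1.21% were higher and 9.95% lower. The median difference of the list was 0.46, against -0.17 over those members, and 0.36 with no signal filter. Cdkn1a, which encodes the cyclin-dependent kinase inhibitor p21, had 7.38 and 6.68 in the MMS arrays (Day 2, Day 4), 7.02 and 7.61 in the Bleomycin arrays (Day 2, Day 6) and 5.32 in Control. Mdm2, the ubiquitin ligase that degrades p53, had 7.43, 5.85, 6.60, 7.23 and 5.91 in the same order, so its signal was highest in MMS Day 2 and at the Control level in MMS Day 4. Gdf15, a secreted stress cytokine, had 7.42 in MMS Day 2 and 5.44 in Control. Plk2, a polo-like kinase, had 6.36 in MMS Day 2 and 4.06 in Control. Eda2r, a receptor of the tumor necrosis factor family, had 5.26 in MMS Day 2 and 2.91 in Control. Plk2 and Eda2r were thus kept through MMS Day 2 alone. The members called lower were the phosphatase genes Ptp4a1, with differences of -1.81 and -1.80 on its 2 probe sets, and Ppm1d, which dampens p53 signaling, with 5.56 in MMS Day 2 and 6.59 in Control, whose call was lost with the arrays centred on their medians. Ccng1, the brightest target of the list, had 11.10 in MMS Day 2 and 11.53 in Control, and Gadd45a had 8.47 in MMS Day 2 and 8.30 in Control.

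NRF2 targets moved both ways. Of 26 kept probe sets 5 were higher and 4 lower (15.4%), and the median difference was 0.11. Over all members with 1 symbol 1.21% were higher and 9.95% lower. Of the called members, Nqo1 and Aldh3a1 were kept through MMS Day 2 alone, and Aldh1a1 and Abcc4 through Control alone. The higher members all act on electrophiles: Nqo1 and Ptgr1, given above, the glutathione transferase Gstp1 with 7.54 in MMS Day 2 and 6.05 in Control, the aldehyde dehydrogenase Aldh3a1 with 5.23 in MMS Day 2 and 4.02 in Control, and the epoxide hydrolase Ephx1 with 6.18 in MMS Day 2 and 5.05 in Control. Taldo1, a pentose phosphate enzyme, fell short of the limit at 0.98. The lower members were Hmox1, the retinal dehydrogenase Aldh1a1 with 3.26 in MMS Day 2 and 6.30 in Control, the autophagy receptor Sqstm1 with 5.54 in MMS Day 2 and 7.86 in Control, and the efflux pump Abcc4 with 3.95 in MMS Day 2 and 5.38 in Control. The glutathione synthesis genes lay between, with differences of -0.84 for Gclm and 0.34 for Gclc, and Nfe2l2, which encodes NRF2, had 6.11 in both arrays. In the other treated arrays Ptgr1 had 5.41 in MMS Day 4 and 5.60 and 5.21 with Bleomycin (Day 2, Day 6), and Gstp1 had 5.87, 5.22 and 5.09, so both had their highest signal in MMS Day 2 by over 2-fold.

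Searched on either strand, the core of the antioxidant response element, TGACNNNGC, lay in the promoters of 6 of 20 kept NRF2 list genes with a promoter in the RefSeq table (GRCr8 build, 250 bases before to 50 after the start). Those were 30% of the list, against 15.4% of the 3267 promoters of kept genes and 12.2% of all 27457 promoters. Gstp1 and Gclm held a match, and Nqo1, Ephx1, Aldh1a1 and Sqstm1 held none in this window. Promoters were found for 37 of the 48 genes with a higher probe set and 321 of the 391 genes with a lower one, and the same core lay in 21.6% of the higher and 11.8% of the lower.

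Metallothioneins, small cysteine-rich proteins that bind zinc and copper, differed among themselves. Mt1 had 8.41 in MMS Day 2 and 7.12 in Control, and Mt1f 7.05 in MMS Day 2 and 5.82 in Control, each over 2-fold higher. Mt2A had 5.57 in MMS Day 2 and 6.59 in Control on its dimmer probe set, which was 2-fold lower, and 9.98 in MMS Day 2 and 10.27 in Control on its brighter one. The lower call of Mt2A was lost with the arrays centred on their medians or quantile normalized, where no member of the list was lower and 3 were higher, so a direction for Mt2A rests on the scaling. A dim probe set of Mt1 under the limit had 3.60 in MMS Day 2 and 1.51 in Control. Across the other arrays the brighter Mt2A probe set had 9.49 in MMS Day 4 and 5.19 and 4.02 in the Bleomycin arrays (Day 2, Day 6), and Mt1 had 8.99, 4.24 and 4.64, so both were bright in the MMS and Control arrays and dim in the Bleomycin arrays. Near-identical metallothionein copies can share probes, which leaves their separate values uncertain. Mtf1, the zinc-sensing factor that binds metal response elements, had 5.82 in both arrays, and no zinc transporter of the list was called.

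The promoters of Mt1 and Mt2A are shown because both hold many matches to a short pattern searched as the core of metal response elements. The higher call of Mt1 held under every scaling tried, while Mt2A had no call that did. Whether a match works as an element was not tested. The core TGCNCNC, on either strand, is in capitals. It occurred 7 times in the Mt1 window and 5 times in the Mt2A window, while 0.652% of all promoters in the table held 5 or more and 50.1% held at least 1. Mt1f held none.
Mt1 promoter, chr19:10832926-10833225, strand -: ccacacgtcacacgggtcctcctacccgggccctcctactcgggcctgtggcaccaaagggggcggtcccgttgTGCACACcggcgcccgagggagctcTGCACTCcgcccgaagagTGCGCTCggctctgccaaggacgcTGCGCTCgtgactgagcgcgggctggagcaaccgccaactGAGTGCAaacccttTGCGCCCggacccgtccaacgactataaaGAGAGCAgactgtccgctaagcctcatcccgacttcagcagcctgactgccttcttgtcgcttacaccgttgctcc
Mt2A promoter, chr19:10838659-10838958, strand -: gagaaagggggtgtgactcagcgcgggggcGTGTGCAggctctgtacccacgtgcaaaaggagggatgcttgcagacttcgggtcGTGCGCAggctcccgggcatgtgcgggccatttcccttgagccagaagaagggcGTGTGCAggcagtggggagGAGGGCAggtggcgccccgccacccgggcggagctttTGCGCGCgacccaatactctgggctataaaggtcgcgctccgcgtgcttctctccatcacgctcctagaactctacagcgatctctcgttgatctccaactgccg

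Genes of the integrated stress response, which cells raise when amino acids run short or proteins misfold, held more lower than higher calls. Of 26 kept probe sets 8 were lower and 1 higher, which is 30.8% lower beside 9.95% of all members with 1 symbol. The median of the list was -0.25 and turned to 0.03 when the arrays were centred on their medians, where 6 were lower and 2 higher. Chac1, which degrades glutathione, had 6.26 and 6.11 in the MMS arrays (Day 2, Day 4), 7.91 and 7.64 in the Bleomycin arrays (Day 2, Day 6) and 8.08 in Control. Trib3, a pseudokinase, had 4.13, 3.78, 5.69, 6.42 and 5.98 in the same order. Both were thus low in the MMS arrays and near Control in the Bleomycin arrays. Atf5 had 6.86 in MMS Day 2 and 8.67 in Control, and the serine synthesis enzyme Psat1 7.71 in MMS Day 2 and 9.07 in Control. Vegfa, Ddit4, Ddit3 (CHOP) and Asns (asparagine synthetase) were lower, with differences of -1.86, -1.67, -1.04 and -1.04. Atf4, the factor that drives the group, had 9.35 in MMS Day 2 and 9.36 in Control, and the chaperone Hspa5 8.02 in MMS Day 2 and 8.05 in Control. Atf3, which other stresses also induce, was the higher member, with 5.99 in MMS Day 2 and 4.95 in Control.

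The promoters of Chac1 and Trib3 are shown as those of the lower members that hold the composite C/EBP-ATF element TGATGNAA, which is in capitals in either orientation. It was found in 3 of 22 list genes, or 13.6%, beside 3.82% of all promoters and 2.02% of those of kept genes. The third was Herpud1, with 7.35 in MMS Day 2 and 8.10 in Control.
Chac1 promoter, chr3:126795881-126796180, strand +: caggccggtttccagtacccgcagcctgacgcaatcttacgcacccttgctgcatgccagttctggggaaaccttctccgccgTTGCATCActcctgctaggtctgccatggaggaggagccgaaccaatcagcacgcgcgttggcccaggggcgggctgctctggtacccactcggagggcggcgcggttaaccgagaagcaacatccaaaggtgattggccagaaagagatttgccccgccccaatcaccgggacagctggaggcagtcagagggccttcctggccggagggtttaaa
Trib3 promoter, chr3:161275484-161275783, strand -: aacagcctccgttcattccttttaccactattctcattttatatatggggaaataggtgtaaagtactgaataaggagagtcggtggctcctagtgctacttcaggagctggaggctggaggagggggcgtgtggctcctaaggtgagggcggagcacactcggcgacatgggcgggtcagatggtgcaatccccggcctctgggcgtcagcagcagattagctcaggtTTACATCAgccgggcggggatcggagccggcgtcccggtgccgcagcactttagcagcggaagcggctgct

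Other stress groups were divided or still. The AP-1 and immediate early list had 12 kept probe sets, 2 higher and 2 lower. Fosl1, an AP-1 subunit, had 5.76 in MMS Day 2 and 3.99 in Control, while the phosphatase Dusp1 had 5.12 in MMS Day 2 and 6.99 in Control and the matricellular gene Ccn2 4.96 in MMS Day 2 and 6.16 in Control. Of 23 heat shock and chaperone probe sets, Dnajb1 alone was called, with 6.27 in MMS Day 2 and 7.66 in Control, and the others lay between -0.58 and 0.63. None of the 10 DNA repair or 6 cell death probe sets kept was called. In those lists the differences farthest from 0 were 0.76 for the histone variant gene H2ax and -0.74 for Bcl2.

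Genes of the lens epithelium were lower as a group. All 18 kept probe sets of the list had differences below 0, 12 were called lower (66.7%, beside 9.95% of all members with 1 symbol) and none higher, and the median was -1.21. Of the 12, 8 reached the signal limit in both arrays, and the others were kept through Control alone. With no signal filter the 27 probe sets of the list had a median of -0.95, and with arrays centred on their medians the kept ones had -0.93 with 9 lower. Pdgfra, the receptor through which PDGF acts on the epithelium, had 4.22 and 3.70 in the MMS arrays (Day 2, Day 4), 3.86 and 4.22 in the Bleomycin arrays (Day 2, Day 6) and 7.20 in Control. Foxe3, a transcription factor of lens epithelial cells, had 4.40 in MMS Day 2 and 6.23 in Control, and Pax6, a master regulator of eye development, 5.60 in MMS Day 2 and 7.33 in Control. Cdh1, the epithelial cadherin, had 6.39, 5.04, 5.07, 4.40 and 8.26 in the same order. Pax6 and Cdh1 thus had their second highest signal in MMS Day 2. Clu, the secreted chaperone clusterin, stayed bright with 10.58 in MMS Day 2 and 12.07 in Control. Sox2, Tfap2a, the glucose transporter Slc2a1, Ccnd2, Meis2, Col4a1 and Col4a2 were the other lower members, of which Col4a1 was the farthest from Control at -2.51 and Meis2 the nearest, with 5.06 in MMS Day 2 and 6.06 in Control. In RNA of a whole lens, fewer epithelial cells and less of these RNAs per cell cannot be told apart.

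Genes of the fiber cells stayed near Control. None of the 18 kept probe sets was called, and the median was -0.01, or 0.27 with the arrays centred on their medians. Mip (aquaporin-0) had 11.46 in MMS Day 2 and 11.45 in Control, Bfsp1 (filensin) 11.86 in MMS Day 2 and 11.70 in Control, and Lim2 11.70 in MMS Day 2 and 11.50 in Control. The lowest of the list was Hspb6, a small heat shock protein, with 6.01 in MMS Day 2 and 6.95 in Control, followed by Gja3, Prox1 and Ank2 at -0.79, -0.75 and -0.62. The 10 crystallin probe sets were all above Control as deposited, although centring on olfactory receptor probe sets, which moves every difference by -0.08, puts the lowest below it. Their differences ran from 0.00 for Cryab, which had 13.27 in both arrays, to 1.20 for Crygf. Cryba2, Crygs, Crygb, Crygd, Cryba1 and Crygc differed by 0.06, 0.08, 0.11, 0.16, 0.16 and 0.26. Crygf, with 11.30 in MMS Day 2 and 10.11 in Control, was the only crystallin called, followed by Crygn at 0.69 and Cryge at 0.60. The gamma-crystallin genes are close copies, so their probe sets may share signal.

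**Figure D3:**
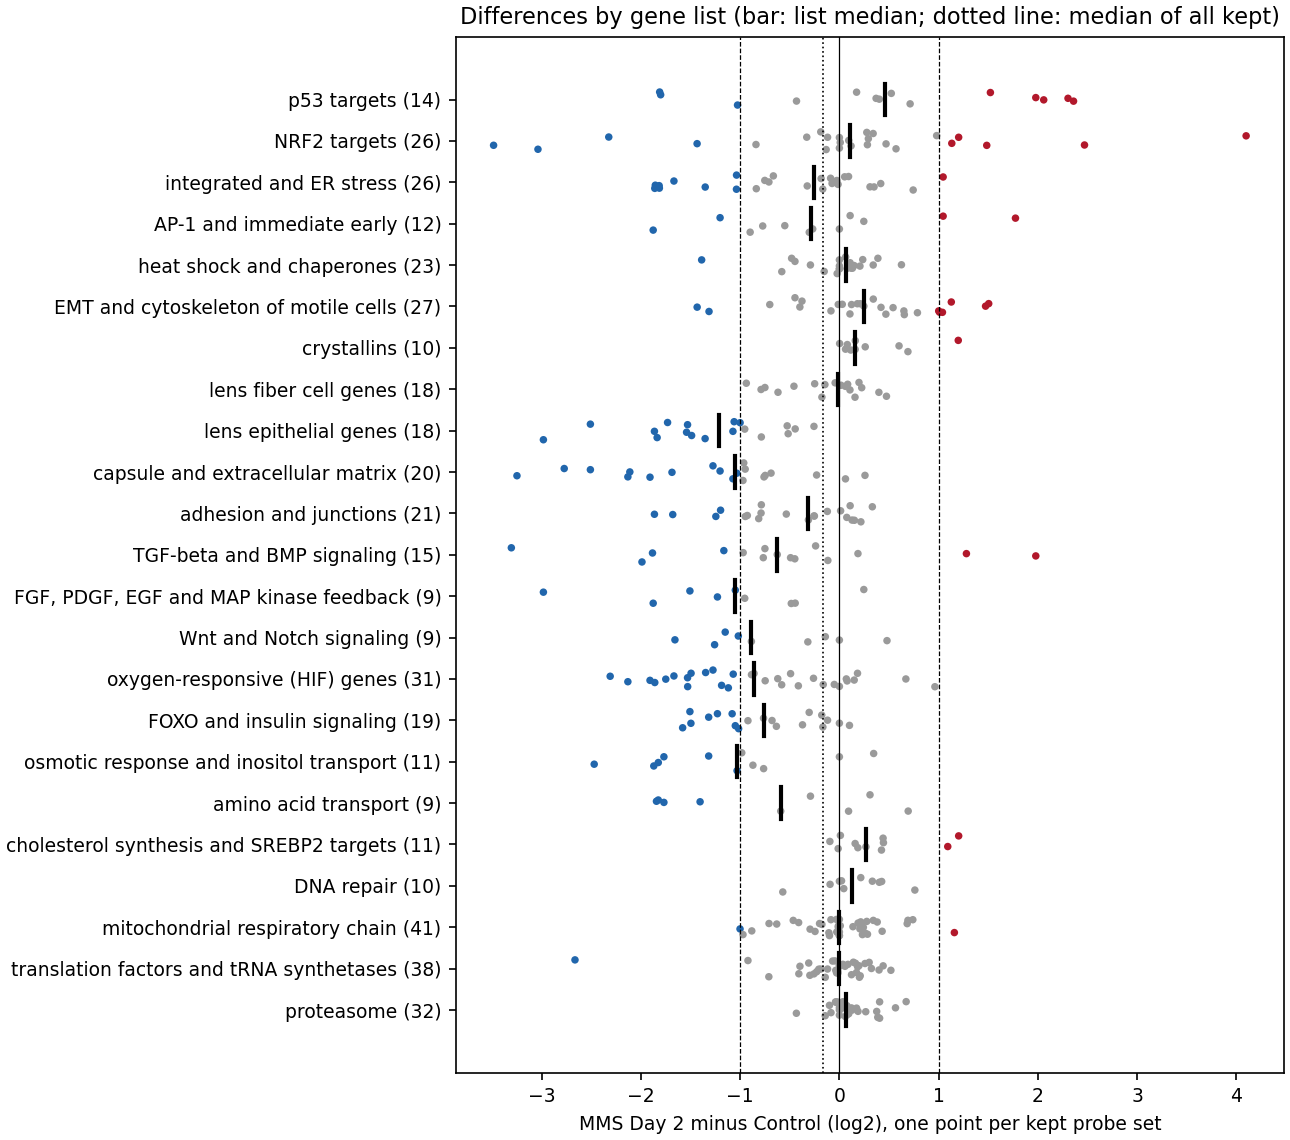
Differences between MMS Day 2 and Control (log2) for each kept probe set of 23 gene lists, with the number kept in brackets, the list median as a black bar, the median of all 3958 members with 1 symbol as a dotted line and 2-fold as dashed lines. Lens epithelial genes lie entirely below 0 with a median of -1.21, fiber cell genes, the respiratory chain and the proteasome cluster at 0, and p53 and NRF2 targets hold members beyond 2-fold on both sides.

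The lens capsule is a basement membrane that the epithelium secretes. Of the 20 kept capsule and matrix probe sets 11 were lower (55%, beside 9.95% of all members with 1 symbol) and none higher, and 7 stayed lower with the arrays centred on their medians. Of the 11, 6 reached the signal limit in both arrays, and the others were kept through Control alone. The lowest of the list was the membrane carboxypeptidase Cpm, at -3.25. Some calls are counted in other lists too. Col4a1 and Col4a2 are also lower members of the epithelial list, and P4ha2, Plod2 and P4ha1 of the oxygen-responsive list below. The median was -1.05, although the 59 probe sets of the list with no filter had a median of -0.01 since most were dim in both arrays. Col4a1 had 5.17 in MMS Day 2 and 7.67 in Control, and the other collagen IV chains Col4a2, Col4a3, Col4a4 and Col4a5 had differences of -1.07, -1.20, -0.76 and -0.97. Of the enzymes that hydroxylate or cross-link collagen, P4ha2 at -2.13, Plod2 at -1.91, Loxl2 at -1.69 and P4ha1 at -1.27 were lower, and Plod1 was not called at -0.75. Efemp1 had 5.60 in MMS Day 2 and 8.37 in Control, and Timp3, an inhibitor of matrix proteases, 6.28 in MMS Day 2 and 8.39 in Control. Sparc, the brightest matrix gene, had 9.06 in MMS Day 2 and 10.01 in Control. Among 21 adhesion and junction probe sets 4 were lower (19%), namely Cdh1, Ncam1 at -1.68, Cadm1 at -1.24 and the desmosomal cadherin Dsc2 at -1.20. Cadm1 and Dsc2 lost the call with the arrays centred on their medians.

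Lists of growth signals kept few probe sets, many of them through Control alone. Over all members with 1 symbol, 9.95% were lower and 1.21% higher. In the FGF, PDGF, EGF and MAP kinase list 5 of 9 kept probe sets were lower (55.6%), of which 1 reached the signal limit in both arrays. The 5 were Pdgfra, Dusp1, Igf1r, Irs1 and Irs2, and Igf1r is counted again in the FOXO and insulin list. The median was -1.05 over the kept probe sets and 0.00 over the whole list with no signal filter, as it was without the filter for the Wnt and Notch list and the guidance list. In the Wnt and Notch list 4 of 9 were lower (44.4%). They were the receptors Lgr4 at -1.66 and Lrp6 at -1.26, the ligand Wnt7b at -1.15 and the secreted inhibitor Sfrp1. Sfrp1 had 9.01 in MMS Day 2 and 10.03 in Control. With arrays centred on their medians 3 of the growth factor list and 1 of the Wnt and Notch list were lower. In the TGF-beta and BMP list 4 of 15 were lower (26.7%) and 2 higher. The lower ones were the antagonists Chrdl1 and Nbl1, the activin subunit Inhba with 4.61 in MMS Day 2 and 6.60 in Control, and the receptor Acvr2a. The higher ones were the ligand Gdf15 and the BMP target Id1, with 5.54 in MMS Day 2 and 4.26 in Control. Among guidance genes, a list written after the values were seen, 6 of 9 were lower (66.7%). Of the 6, 4 stayed lower with the arrays centred on their medians. The lower ones included Slit3 at -2.10, the netrin receptor Neo1 at -1.75, Sema5a at -1.72 and the ephrins Efnb2 at -1.30 and Efna5 at -1.15.

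In the eye the lens lives at low oxygen, and the factor HIF1 drives glucose uptake, glycolysis and collagen hydroxylation. All lenses of the series, Control included, were cultured in an incubator with room air and added carbon dioxide. A part of oxygen in the differences was not tested. In a list of oxygen-responsive genes written after the values were seen, 14 of 31 kept probe sets were lower and none higher, with a median of -0.86. That is 45.2% lower, beside 9.95% of all members with 1 symbol, and 9 of the 14 reached the signal limit in both arrays. With the arrays centred on their medians 10 were lower and 1 higher, with a median of -0.58. Ero1a, an oxidase of the endoplasmic reticulum, had 4.40 and 2.99 in the MMS arrays (Day 2, Day 4), 4.45 and 3.16 in the Bleomycin arrays (Day 2, Day 6) and 6.71 in Control. Slc2a1, the glucose transporter GLUT1, had 7.38, 4.81, 5.92, 5.61 and 8.91 in the same order. Hif1a itself had 7.80, 5.08, 6.11, 5.70 and 8.69, which is a difference of -0.89 in MMS Day 2. Vegfa, Pgf, Vldlr, Slc16a3, Car9, Bhlhe40, Mxi1 and Egln1 were lower by differences from -1.07 to -1.86. A second probe set of Mxi1 was not called, at -0.86. None of the glycolytic enzymes of the list was called, and they lay on both sides of Control. Ldha had 6.84 in MMS Day 2 and 5.88 in Control and Pgk1 9.83 in MMS Day 2 and 9.16 in Control, while Aldoc differed by 0.15, Aldoa by -0.05, Gpi by -0.41 and Hk2 by -0.62. Mir210, a microRNA of the hypoxic response, had 5.08 in MMS Day 2 and 5.01 in Control.

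The core of the hypoxia response element, ACGTG, was found on either strand in the promoters of 16 of 25 genes of this list (64%), beside 27.7% of the promoters of kept genes and 19.7% of all promoters. It lay in 9 of the 13 genes called lower that had a promoter in the table. Hif1a, Ankrd37, Pdk1, Gpi, Aldoc, Higd1a and Ldha, which were not called, held it too. Over all genes with a lower probe set, 26.8% of the promoters held the core, which is near the share of kept genes. Bhlhe40, a clock and hypoxia repressor with 4 matches, of which the farthest pair from the start are both strands of 1 palindromic CACGTG, and P4ha2, a collagen prolyl hydroxylase subunit with 2, are shown as the called members with differing numbers of the core, which is in capitals.
Bhlhe40 promoter, chr4:143174200-143174499, strand +: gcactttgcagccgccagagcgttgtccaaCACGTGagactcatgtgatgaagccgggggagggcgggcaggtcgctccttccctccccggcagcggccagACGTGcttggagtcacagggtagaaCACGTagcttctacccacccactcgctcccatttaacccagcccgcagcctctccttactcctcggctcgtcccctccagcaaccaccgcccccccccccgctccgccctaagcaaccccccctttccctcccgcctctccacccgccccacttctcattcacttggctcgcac
P4ha2 promoter, chr10:38743644-38743943, strand +: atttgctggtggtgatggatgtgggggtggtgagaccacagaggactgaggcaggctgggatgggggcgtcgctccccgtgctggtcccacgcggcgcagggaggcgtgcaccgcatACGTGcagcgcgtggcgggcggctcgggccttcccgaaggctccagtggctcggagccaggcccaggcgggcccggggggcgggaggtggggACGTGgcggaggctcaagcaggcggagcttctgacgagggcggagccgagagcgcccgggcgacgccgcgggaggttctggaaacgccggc

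Nutrient and osmotic genes, from lists partly written after the values were seen, also held lower calls. These lists overlap with each other and with those above, so some calls, such as that of Igf1r, are counted again. In the FOXO and insulin list 8 of 19 were lower (42.1%, beside 9.95% of all members with 1 symbol) and none higher. Of the 8, 2 reached the signal limit in both arrays, and 4 of the list were lower with the arrays centred on their medians or quantile normalized. Among the 8 were Pik3r1 at -1.58, Igf1r at -1.51, the kinase Sgk1 at -1.32 and Txnip. The last, an inhibitor of thioredoxin and of glucose uptake, had 5.45 and 4.20 in the MMS arrays (Day 2, Day 4), 3.44 and 2.46 in the Bleomycin arrays (Day 2, Day 6) and 6.95 in Control. In the osmotic list 6 of 11 were lower (54.5%), of which 1 reached the signal limit in both arrays, and 5 were lower with the arrays centred on their medians. Slc5a3, the sodium-dependent inositol transporter, had 2.76 in MMS Day 2 and 5.23 in Control, the taurine transporter Slc6a6 4.86 in MMS Day 2 and 6.69 in Control, and Nfat5, the factor that switches on both under hypertonic stress, 4.10 in MMS Day 2 and 5.97 in Control. Of 9 amino acid transporters 4 were lower (44.4%), and 3 of these reached the signal limit in both arrays. Beside Slc6a6, counted in both lists, they were Slc7a8 (7.05 in MMS Day 2 and 8.90 in Control), Slc38a2 (6.33 and 8.10) and Slc7a2 (5.68 and 7.09). Slc3a2 and Slc7a5, the chains of a large neutral amino acid carrier, were not called and had differences of 0.09 and 0.31. Over all 49 solute carrier probe sets kept, 12 were lower (24.5%, beside 9.95% of all members with 1 symbol) and none was higher. Of the 12, 6 reached the signal limit in both arrays. Atp1b3, a sodium pump subunit, had 6.48 in MMS Day 2 and 8.66 in Control, and the calcium pump inhibitor Pln 5.32 in MMS Day 2 and 3.54 in Control. Both belong to the ion and water transport list, of whose 9 kept probe sets 1 was higher and 2 were lower, the other being Trpm3.

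Cytoskeletal genes leaned upward. Of 27 kept probe sets of the list on epithelial-mesenchymal transition and motile cells, 6 were higher and 2 lower, with a median of 0.25. Over all members with 1 symbol 1.21% were higher. S100a11, a calcium-binding protein, had 10.69 in MMS Day 2 and 9.19 in Control, and the actin cross-linker Actn1 6.39 in MMS Day 2 and 4.92 in Control. Tuba1c (an alpha-tubulin), Gsn (gelsolin), Dbn1 (drebrin) and Capg, an actin-capping protein, were also higher, and Tuba1c was the farthest from Control of these at 1.13. Actn1, Dbn1 and Capg had Control signals under 5, so they were kept through MMS Day 2 alone. Actn1 had 4.92 in MMS Day 4 and 4.47 and 4.50 in the Bleomycin arrays (Day 2, Day 6), and Tuba1c 5.99, 4.80 and 4.83, so both were highest in MMS Day 2. When arrays were centred on the olfactory receptor probe sets, 3 of the list were higher. The lower members were the repressor Zeb2, with 4.70 in MMS Day 2 and 6.13 in Control, and Anxa1, an annexin, with 6.64 in MMS Day 2 and 7.96 in Control.

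Among lipid genes, the cholesterol synthesis list had 2 of 11 higher and none lower. These were Sqle, the squalene epoxidase, with 5.37 in MMS Day 2 and 4.17 in Control, and Idi1, an isomerase of the same pathway, with 6.15 in MMS Day 2 and 5.06 in Control. Of 15 fatty acid and lipid probe sets 2 were higher, namely Gpd1 at 1.20 and Angptl4, an inhibitor of lipoprotein lipase, at 1.07, and 2 were lower, Lpl and the sterol regulator Srebf1 at -1.60. Angptl4 had 5.15 in MMS Day 2 and between 3.80 and 4.08 in the other 4 arrays. Lpl had 2.51 in all 4 treated arrays, equal to the last digit, against 5.91 in Control.

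The general machinery of the cell was nearly level. None of 32 proteasome probe sets was called, and their differences ran from -0.43 to 0.67. Of 38 translation factor and tRNA synthetase probe sets Eprs1 alone was called, and the median was -0.01. Of 109 ribosomal protein probe sets the copy Rplp2l3 alone was called, and the median was 0.00. In the respiratory chain list 1 of 41 was higher, the uncoupling protein Ucp2 with 8.41 in MMS Day 2 and 7.25 in Control, and 1 was lower, the mitochondrially encoded COX2. COX1, COX2 and COX3, the mitochondrially encoded members that were kept, had 11.95, 10.23 and 11.78 in MMS Day 2, against 12.59, 11.23 and 12.48 in Control. COX2 lay right at the 2-fold limit.

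RNA-binding and nuclear genes had calls in both directions. Of 45 zinc finger probe sets found by their symbols 8 were lower (17.8%, beside 9.95% of all members with 1 symbol) and none higher, with Zbtb20 farthest from Control at -1.58. Of the 8, 1 reached the signal limit in both arrays, and the others were kept through Control alone. Zfp36l2 was lower on 1 probe set at -1.25 and had 0.23 on another. With the arrays centred on their medians 3 stayed lower. Of 16 ubiquitin-specific protease probe sets 3 were lower (18.8%), 1 of them above the signal limit in both arrays. Usp47 was farthest at -1.16, and none stayed lower with that centring. Of 36 splicing and RNA-binding probe sets 2 were higher, Rbm3 with 6.83 in MMS Day 2 and 4.74 in Control and Tra2a at 1.01, and 3 were lower, both probe sets of Celf1 at -1.41 and -1.24 and Rbm5 at -1.13. Of these, 1 stayed lower with the arrays centred on their medians. Of 17 histone and HMG probe sets the histone H4 gene H4c14 was lower, with 5.75 in MMS Day 2 and 7.36 in Control, while another H4 gene, Hist1h4b, had 6.76 in MMS Day 2 and 5.80 in Control. Histone genes are near-identical, and 4 of the 10 called probe sets with several gene symbols carried histone symbols, so these values cannot be assigned to single genes. In the proliferation list Tyms, the thymidylate synthase, was higher with 5.61 in MMS Day 2 and 4.07 in Control, and only 3 probe sets of that list were kept. In the interferon list Samd9l was higher at 1.34, of 5 kept. Of 7 complement and inflammation probe sets 3 were higher (Cd80, Bpifb1 and the protease inhibitor Serpina3n at 1.18) and 2 lower (Serping1 and the complement regulator Cd55 at -2.18). In the clock list Bhlhe40 at -1.19 and Rora at -1.07 were lower of 8, and both lost the call when the arrays were centred on their medians. The lysosomal list had 4 of 24 lower (16.7%, beside 9.95% of all members with 1 symbol), namely Sqstm1, Ulk1 at -1.40, Hexa at -1.31 and Ctsb at -1.02.

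MicroRNAs are short RNAs that pair with messenger RNAs through bases 2 to 8, the seed. Of 363 microRNA probe sets 16 were kept, 2 were higher and 1 lower, and 7 of the 16 were kept through MMS Day 2 alone. With the arrays centred on their medians 8 were higher and none lower, and with quantile normalization 5 were higher and none lower, so the lower call of Mir204 rests on the scaling as deposited. Mir328 had 6.45 and 7.21 in the MMS arrays (Day 2, Day 4), 6.34 and 6.81 in the Bleomycin arrays (Day 2, Day 6) and 4.69 in Control. Mir181d had 6.77, 7.72, 6.52, 7.24 and 5.67 in the same order, and Mir204 had 3.97, 2.90, 3.05, 2.70 and 5.12. Mir328 and Mir181d were lowest in Control, and Mir204 was highest there. Mir204 lies within the gene Trpm3, a cation channel, which had 4.87 in MMS Day 2 and 6.46 in Control. The mature sequences of Mir204 and Mir181d, from RefSeq (GRCr8), are shown with the seed in capitals, since the seed sets which messages a microRNA can pair with. The seed of miR-204-5p is shared with miR-211-5p alone in the table, and that of miR-181d-5p with the other miR-181 5p forms. Mir211 had 1.99 in MMS Day 2 and 2.13 in Control, and Mir181c 3.52 and 3.54. Which arm a probe set reads is not given in the sources used here.
rno-miR-204-5p, chr1:229743493-229743514, strand +: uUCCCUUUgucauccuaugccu
rno-miR-204-3p, chr1:229743532-229743553, strand +: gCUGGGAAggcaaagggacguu
rno-miR-181d-5p, chr19:40888484-40888506, strand +: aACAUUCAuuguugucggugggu
rno-miR-181d-3p, chr19:40888526-40888545, strand +: cCACCGGGggaugaauguca

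A feature that the choice of members did not use was the genomic length of the gene. Of members with 1 symbol, 99.6% had a span in the RefSeq table. The median span was 9.69 kb for the 48 higher members, 51.5 kb for the 394 lower and 19.8 kb for those called in neither direction. Split into 5 equal groups from short to long, 5.58%, 4.69%, 7.74%, 9.37% and 22.5% of members were lower in MMS Day 2. The group of the longest genes, with spans over 62.7 kb, held 177 of the lower calls and 3 of the higher. Its median signal was 5.32 in MMS Day 2 and 5.95 in Control, and that of the shortest genes 6.36 in MMS Day 2 and 6.50 in Control. Signal and length thus went partly together. Among members with a Control signal of at least 7, a choice made after seeing the data, the shares were 5.19%, 6.80%, 7.07%, 14% and 28.5%. In the same groups of all members the median difference was 0.00, 0.00, -0.09, -0.33 and -0.60 for MMS Day 2 and -0.06, -0.24, -0.45, -0.80 and -1.08 for MMS Day 4. For Bleomycin Day 2 it was -0.02, 0.00, -0.07, -0.26 and -0.54, and all these differences share the Control array.

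**Figure D4:**
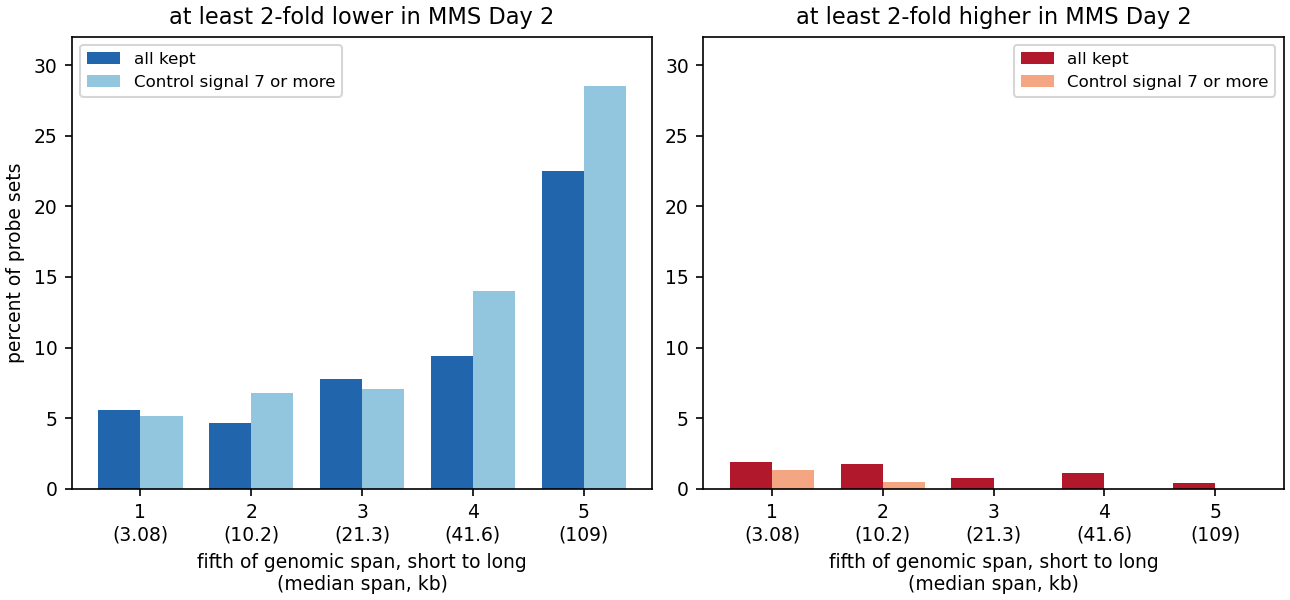
Percentage of probe sets with 1 symbol that were at least 2-fold lower (left) or higher (right) in MMS Day 2, by 5 equal groups of genomic span, with the median span of each group in kb in brackets. The darker bars are all kept probe sets and the lighter bars those with a Control signal of 7 or more, and the share of lower calls is 5.58% among the shortest and 22.5% among the longest genes.

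The longest lower genes were Tenm3, Ptprd, Erbb4, Trpm3 and Zbtb20, with spans from 739 to 2727 kb and differences from -1.24 to -1.59. Tenm3 was read by a second probe set, which was not called and had a difference of -0.42. The 8 lower members of the integrated stress list had a median span of 5.56 kb, and those of the lens epithelial list 33.7 kb and of the matrix list 91.3 kb. Of the 12 lower epithelial probe sets 2 lay in the 2 shortest groups, Foxe3 and Sox2 with spans of 1.58 and 2.41 kb, as did none of the 11 lower matrix probe sets and 5 of the 8 of the integrated stress list.

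The Bleomycin Day 2 array had the same culture time as MMS Day 2, and the MMS Day 4 array the same as Control. Setting the Day 2 arrays against each other leaves out the Control array. Over the 4124 members 61 were at least 2-fold above and 16 at least 2-fold below the Bleomycin Day 2 array in MMS Day 2, and 17.9% had equal values. Of the 402 lower members, chosen for a low signal in that MMS array, 16 were 2-fold above and 10 were 2-fold below Bleomycin Day 2, and the median difference between these arrays was 0.00. Of the 50 higher members, 13 were 2-fold above and 1 below, counts that are read as a description since the 50 were chosen for a high signal in the same MMS Day 2 array. The higher members that stood apart in this way were the metallothioneins Mt1 and Mt1f, Nqo1, Ptgr1, Gstp1, Aldh3a1, Tuba1c, Bpifb1, Serpina3n, Actn1, Gadd45b, Angptl4 and Wdr46. Pln was the higher member that lay below, with 5.32 in the MMS array and 6.50 in the Bleomycin array of Day 2. Nqo1 had 7.64 and 5.43 in the MMS arrays (Day 2, Day 4), 4.08 and 5.76 in the Bleomycin arrays (Day 2, Day 6) and 3.55 in Control, the lowest of the 5.

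Among the lower members, Cyp2b1 had 2.24 in the MMS array and 5.02 in the Bleomycin array of Day 2. Chac1, Trib3, Thrsp, Sall1 and the dimmer probe set of Celf1 were also at least 2-fold below the Bleomycin Day 2 array. The brighter Celf1 probe set was not, with a difference of -0.82 between these arrays. On the other side Txnip, S1pr3, Parm1, Anxa1, Efemp1, Slc2a1, Slc7a8, Cdh1 and Chrdl1 were lower than Control in MMS Day 2 and lower still in Bleomycin Day 2. S1pr3, a receptor for sphingosine-1-phosphate, had 5.37 with MMS and 3.20 with Bleomycin at Day 2, against 7.62 in Control. In MMS Day 4 the signals of S1pr3, Anxa1 and Slc2a1 were lower again, at 3.27, 3.97 and 4.81. Thrsp, a lipogenic gene, ran the other way, with 5.70 in MMS at Day 2 and 7.38 at Day 4.

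**Figure D5:**
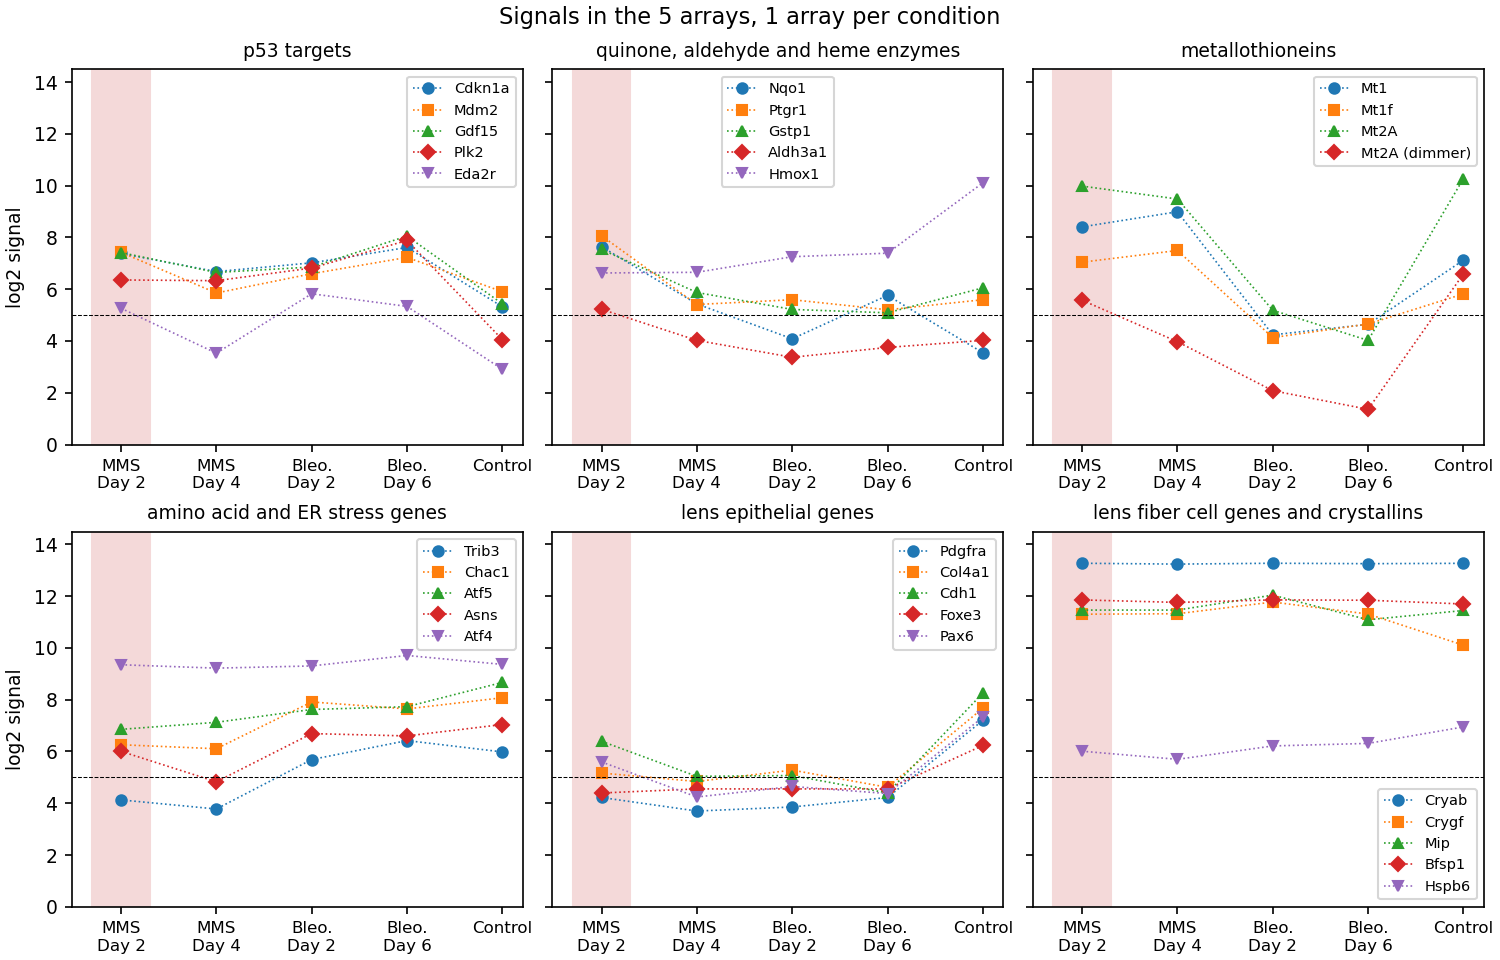
Log2 signals of named genes in the 5 arrays, 1 array per condition, with MMS Day 2 shaded and the dashed line at the signal limit of 5; dotted lines join the values of a gene and stand for no time course. Nqo1, Ptgr1 and Gstp1 peak in MMS Day 2, the metallothioneins are low in both Bleomycin arrays, and the lens epithelial genes are highest in Control, while Cryab, Bfsp1 and Mip stay above 11 in every array.

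Other cell types left little trace. Of the marker lists, those of blood, macrophages and leukocytes, vascular endothelium, fibroblasts and corneal epithelium had no probe set at the limit, with highest signals of 2.13, 3.79, 2.81, 3.66 and 4.77 in MMS Day 2 and 2.18, 4.32, 2.65, 3.66 and 4.14 in Control. Of 14 retina and neuron markers 2 were kept, Map2 (3.87 in MMS Day 2 and 5.27 in Control) and Rbfox3 (5.18 and 4.77), of 9 pigment cell markers only Mitf (5.06 in both), and of 6 smooth muscle markers only Des, with 3.44 in MMS Day 2 and 5.59 in Control. Gapdh, often used as a reference gene, was read only by probe sets that carry several symbols, at 12.20 and 12.30 in MMS Day 2 and 12.31 and 12.41 in Control.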

How the data were processed

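RNA of cultured rat lenses was read by the authors on the Rat Gene 2.0 ST array, 1 array for each of 5 conditions. The deposited values are log2 signals per probe set that the authors normalized with RMA in R; the version and the probe annotation build are not given in the sources used here. They were used as deposited. Gene symbols came from GEO's platform annotation, updated through a RefSeq gene table of the rat: 18511 probe sets had 1 symbol, 575 had several, and 18394 matched the table. Lists and named genes use probe sets with 1 symbol, and spans and sequences come from RefSeq (GRCr8).

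With 1 array a side, differences of log2 signals were taken with no test, and a call is at least 2-fold with a signal of 5 or more in either array. The precision is limited by the number of arrays. The 2-fold call was first tested on simulated arrays with known differences. The signal filter, the lists, the spans and the sequence searches were not tested in this way. Named genes are the 15 farthest from Control each way, up to 6 called members of each list, the member with the largest difference in lists with no call, metallothionein, crystallin and mitochondrially encoded genes, defining lens genes, called microRNAs and the 3 probe sets on each side of the signal limit. Genes named outside it (Abcb1b, Gapdh, Trpm3, Ccng1, Atf4, Hif1a, Nfe2l2, those set against the other Day 2 array, the longest genes and other members named for contrast) were chosen after their values were seen. The members, lists and alternatives were chosen with earlier results of these data known, and 4 lists (oxygen-responsive, guidance, FOXO and insulin, osmotic) were written after the values were seen. Alternatives changed the filter, the fold and the scaling between arrays. Python 3.11.15 with numpy 2.4.6, pandas 2.3.3 and matplotlib 3.10.9 was used.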

Additional observations from a re-analysis of the deposited data

Results flagged for a closer look

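The metallothioneins Mt1 and Mt1f moved in opposite directions in the Day 2 arrays of the 2 drugs. Mt1 differed from Control by 1.29 in MMS Day 2 and by -2.89 in Bleomycin Day 2, and Mt1f by 1.23 in MMS Day 2 and by -1.69 in Bleomycin Day 2. The difference was not tested, since each condition had 1 array, and both values share the Control array.

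Probe sets without a gene name were left out of the members. Of 2353 that reached a signal of 5 in either array, 104 rose past the 2-fold limit in MMS Day 2 (4.42%, beside 1.21% of named members) and 318 fell past it (13.5%, beside 9.75%).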

How the results depend on the processing

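The counts of higher and lower members moved with the filter and the scaling. With no signal filter 145 named probe sets were higher (548 lower) and the median difference was 0.00; with a limit of 6 the counts were 27 higher and 236 lower, and with a 3-fold call 15 higher and 102 lower. Centring each array on its median over the members gave 104 higher, 192 lower and a median of 0.12, and quantile normalization of the 5 arrays, with the signal limit applied anew to leave 3848 members, 79 higher, 205 lower and a median of 0.075, so the sign of the median depends on the scaling. With the members held fixed, 192 of the 402 lower ones kept their 2-fold difference with centring and 223 with quantile normalization. All 50 higher ones kept theirs under both, which centring could not have changed since it moved every difference up by 0.28. Centring on olfactory receptors, which moved every difference by -0.08, left 40 higher. A limit in any of the 5 arrays, probe sets with exactly 1 symbol and centring on olfactory receptors stayed within 1.5 times for both counts. The 30 genes farthest from Control kept their direction and their call under the 3 scalings. Either centring moves all differences by the same amount, too small to undo calls this far from Control, so only quantile normalization could have changed them. The medians of the integrated stress, glycolysis, heat shock, proteasome, translation, lysosome, fiber cell, ribosomal protein and solute carrier lists, all within 0.26 of 0, changed sign with at least 1 scaling. No paired analysis was possible because each condition had 1 array, and leaving out an array leaves no comparison. Dim signals limit the comparison, since 29 of the 50 higher and 232 of the 402 lower members were under the signal limit in 1 of the arrays.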
